A study of Mus musculus with 48 samples.

Results

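The cytokine receptor genes described here are 33 mouse genes for chains of the receptors of interleukins, interferons and related cytokines, measured by the accessibility of the chromatin in and around them. A peak, a region where sequenced fragments pile up, was assigned to one of these genes when it overlapped the body of that protein-coding gene, or, if it overlapped none, when that gene was the nearest within 100 kb. Under this rule 202 of the 53868 peaks belonged to 32 of the 33 genes, with 110 of them in the gene and 92 outside it. Il17rb, a chain of the IL-25 receptor, had no peak. Ifngr1 had the most peaks (17), followed by Il2ra (15), Il6st (14) and Il12rb2 (13), and Il2rg, Il15ra and Il17rc had 1 each. Of the 202 peaks, 22 covered an annotated transcription start.

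Cytokine receptors are built from shared and private chains. Most of the receptors here carry Janus kinases on their inner ends, which phosphorylate STAT transcription factors once the cytokine has joined the chains. The IL-1 family and IL-17 receptors signal through adaptor proteins toward NF-kB instead. In CD8 T cells the common gamma chain cytokines IL-2, IL-7, IL-15 and IL-21 are known for survival, expansion and memory, IL-12 and IL-18 for interferon gamma production, and loss of the IL-6 and IL-7 receptor alpha chains is a known feature of strongly activated cells. Open chromatin marks sites where regulatory proteins can bind, and is not a measure of how much receptor a cell makes.

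The cells were OT-1 CD8 T cells, whose T cell receptor recognises an ovalbumin peptide, taken from B16-OVA melanomas grown in young or aged mice. The donor cells expressed Cas9 and carried a guide against Zfp219, which encodes a zinc finger protein, against Dusp5, which encodes a phosphatase of the kinase ERK, or the guide named OTC, used here as the control under that name only. Accessibility does not show whether a guide cut its gene, so these values are no check of the knockouts. Cells were sorted 15 days after the tumour cells were given, on the surface proteins Slamf6 and Tim-3, into the progenitor exhausted state (Tprog, Slamf6 alone), the transitory effector-like state (Ttran, both), the terminally exhausted state (Tterm, Tim-3 alone) and the age-associated dysfunctional state (Ttad, neither). Age refers to the host: all cells are of the same transferred kind, and the exact host ages are not used here. The 48 libraries form 21 groups. Each of the 12 aged groups (3 guides by 4 states) has 2 libraries, and of the 9 young groups (3 guides by 3 states, without Ttad) the Tprog groups have 2 libraries and the Ttran and Tterm groups 3. Each library came from a pool of sorted cells of several mice. Nothing used here says which mice were in which pool, so the spread between libraries of a group may be partly technical, and p-values measure that spread only.

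Between 5638413 and 29942755 reads lay in peaks per library (median 14691505), with 5638413 to 16159054 in the aged libraries and 6589023 to 29942755 in the young ones. The 202 receptor peaks held 0.443% to 0.494% of them. Values are given as normalized reads, which are reads divided by the size factor of the library. The aged and the young libraries carry their own sample sheet numbers, so host age and the set in which libraries were made cannot be told apart. All 7 CD8 T cell marker genes checked had a peak, with the strongest of each between 664 and 1455 normalized reads on average. Foxp3, Cd79a, Cd79b, Ms4a1, Csf1r, Lyz2, Adgre1, Ncr1, Tyr, Dct and Sox10, which define regulatory T, B, myeloid, NK and melanoma cells, had no peak in the gene. Other genes of these lists had one, 1 of 2 for CD4 and regulatory T cells (strongest 349 normalized reads), 2 of 6 for B cells (211), 3 of 6 for myeloid cells (249), 1 of 2 for NK cells (8.72) and 3 of 6 for melanoma cells (527), and what part such cells had in any result was not tested. Peaks of the terminal markers Havcr2, which encodes Tim-3, and Entpd1 summed to 3383 and 3399 normalized reads in the aged OTC Tprog libraries and to 6592 and 6891 in Tterm. In aged Ttad they summed to 4619.5 and 4659. In such bulk samples, fewer cells with an open site and a site that is less open in each cell cannot be told apart.

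The promoters of 5 genes are shown because a peak over their start carried differences between states, ages or guides, described further on. Each is the 250 bases before the RefSeq start in GRCm38.p6, read 5′ to 3′ on the strand of the gene, with motif matches in capitals. They are Il6ra (chr3:89913197-89913446, minus strand, 65.2% G and C, 18 CG pairs), Il9r (chr11:32200280-32200529, minus strand, 52.8% G and C, 5 CG pairs), Il1r2 (chr1:40085843-40086092, plus strand, 51.2% G and C, 14 CG pairs), Il21r (chr7:125603179-125603428, plus strand, 55.6% G and C, 4 CG pairs) and Ifngr2 (chr16:91546809-91547058, plus strand, 74% G and C, 25 CG pairs).
Il6ra: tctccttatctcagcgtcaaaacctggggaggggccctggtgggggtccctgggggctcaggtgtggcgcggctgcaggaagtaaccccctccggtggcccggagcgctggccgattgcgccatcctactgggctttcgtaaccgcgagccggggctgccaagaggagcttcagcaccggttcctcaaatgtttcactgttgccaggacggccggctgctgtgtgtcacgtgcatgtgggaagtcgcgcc
Il9r: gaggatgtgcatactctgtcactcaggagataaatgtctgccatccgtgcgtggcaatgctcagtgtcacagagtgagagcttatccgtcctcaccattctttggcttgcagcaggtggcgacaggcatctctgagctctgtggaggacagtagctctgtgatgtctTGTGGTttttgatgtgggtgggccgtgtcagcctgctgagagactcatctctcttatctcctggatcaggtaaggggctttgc
Il1r2: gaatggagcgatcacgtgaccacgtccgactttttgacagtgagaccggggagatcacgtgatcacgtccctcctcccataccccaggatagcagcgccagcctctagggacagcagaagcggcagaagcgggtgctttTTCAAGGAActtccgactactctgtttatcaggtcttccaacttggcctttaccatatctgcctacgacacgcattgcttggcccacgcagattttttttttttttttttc
Il21r: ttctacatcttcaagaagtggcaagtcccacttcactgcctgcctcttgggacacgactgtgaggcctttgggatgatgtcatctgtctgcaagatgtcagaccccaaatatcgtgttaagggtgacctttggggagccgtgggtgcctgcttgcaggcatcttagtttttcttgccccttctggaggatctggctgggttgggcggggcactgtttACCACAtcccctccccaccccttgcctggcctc
Ifngr2: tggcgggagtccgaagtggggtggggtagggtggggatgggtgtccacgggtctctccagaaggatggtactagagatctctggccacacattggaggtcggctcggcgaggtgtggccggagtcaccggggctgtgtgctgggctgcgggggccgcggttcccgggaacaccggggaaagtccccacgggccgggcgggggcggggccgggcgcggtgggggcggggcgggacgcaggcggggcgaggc

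RefSeq promoters were at hand for 26 of the 33 genes, 32 in all since some genes have several starts. Motifs were searched on both strands, in these and in all 32851 promoters of the table. The Runt core TGTGGT, present once each in the Il9r and Il21r promoters, was in 14% of all promoters and 5 of the receptor promoters. The STAT motif TTCNNNGAA, present once in the Il1r2 promoter, was in 7.02% of all promoters and 5 of the receptor promoters. The TCF motif CTTTGA was in 13.8% of all promoters and 3 of the receptor promoters, and the AP-1 motif TGANTCA in 6.75% of all promoters and 3 of the receptor promoters. The ETS motif CCGGAAGT was in 2.88% of all promoters and 1 of the receptor promoters. The T-box motif TCACACCT was in 1.12% of all promoters and 0 of the receptor promoters. The Il6ra and Ifngr2 windows held none of these 6 motifs.

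Levels of different genes can be compared only per kilobase of peak. On that scale the strongest peak of each gene ranged from 54.7 normalized reads per kb at Osmr, the oncostatin M receptor chain, to 1016 at Il2rb, the beta chain of the IL-2 and IL-15 receptors. Ifngr1 (909), Il21r (850.1), Ifngr2 (844), Il4ra (792) and Il2ra (792) followed at the top. Lifr (58.4) and Il1r1 (62.3) were next to Osmr at the bottom. Over all 202 peaks the median of the mean level was 153 normalized reads, against 93.9 for all 53868, and no library lacked a read in 193 of them (93.0% of all peaks).

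How far a strongest peak moved across the 21 groups differed greatly between genes. The highest group mean exceeded the lowest 6.87-fold at Il9r (aged OTC Ttad against young OTC Tterm), the receptor chain for IL-9, and 5.92-fold at Il1r1 (aged Dusp5 Ttran against young Dusp5 Tterm), the signalling receptor of IL-1. At Csf2rb, the chain shared by GM-CSF, IL-3 and IL-5, the ratio was 4.49 (aged OTC Tterm against young Dusp5 Tprog). It was 4.09 at Lifr and 2.6 at Il6ra, the IL-6 receptor alpha chain. At the other end, the strongest peaks of Il17rc (1.23), Il12rb2 (1.27), Il2rg (1.31) and Il10rb (1.32) stayed within a narrow range. Il2rg encodes the common gamma chain and Il10rb the chain shared by IL-10 and IL-22.

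**Figure D1:**
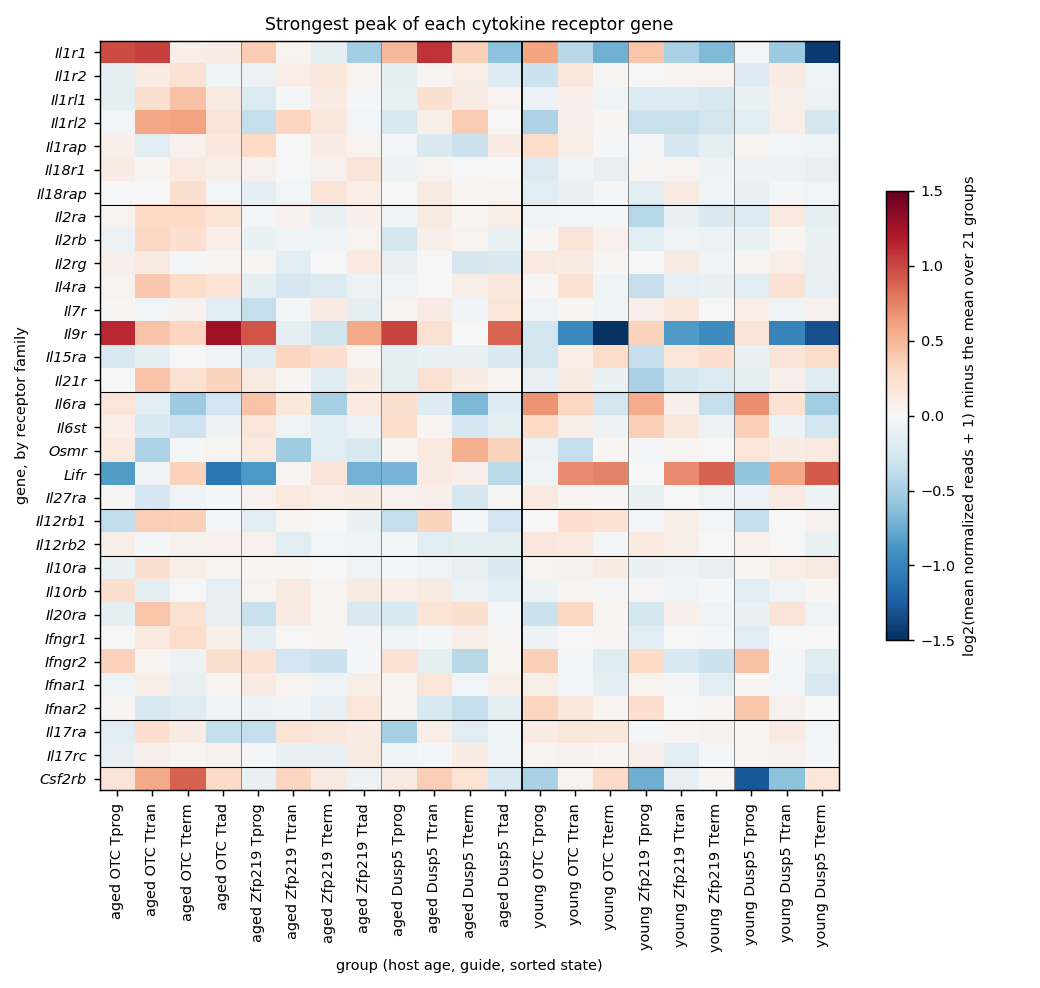
Strongest peak of each of the 32 genes (rows, by receptor family) in the 21 groups (columns), as log2 of the group mean of normalized reads plus 1, minus its mean over the groups. Il9r is high in aged Tprog and Ttad, Il6ra is high in Tprog at both ages, and Lifr is low in aged Tprog and Ttad.

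Each difference was tested with limma on log2(normalized reads + 1), with p-values adjusted over all 53868 peaks. Peaks with an adjusted p under 0.05 are referred to as called. A log2 ratio below is the difference of mean log2 values between the first and the second group named. A fold change is thus on the scale of log2(value + 1), which understates changes of weak peaks. The fit takes 1 spread for all libraries of a peak, although shallow libraries vary more. On reads simulated with the real depths it therefore gave too many small p-values in the Ttad comparisons, in aged Ttran against Tterm and with the Dusp5 guide in aged hosts, and too few in the young comparisons between states and in the young Dusp5 comparison. With limma's weights per library, tried after this was seen, small p-values came at the nominal rate in every simulated comparison. In the simulation the libraries of a peak differed in spread through depth alone. It therefore cannot show how the weighted p-values behave for the real pools. In the data the weights ran from 0.495 to 1.86 and followed depth (Spearman's rho 0.87 over 48 libraries, a description), and weighted counts stand beside the others where they differ by more than 1.5 times. Strong peaks are called more often than weak ones, and the receptor peaks are stronger than average. Among peaks with a mean of at least 100 normalized reads, 36 of 121 receptor peaks were called lower with the Dusp5 guide in aged hosts, against 14% of all such peaks. For the Zfp219 guide the counts were 39 of 121 against 19.3% in aged hosts and 23 of 121 against 9.35% in young hosts.

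**Figure D2:**
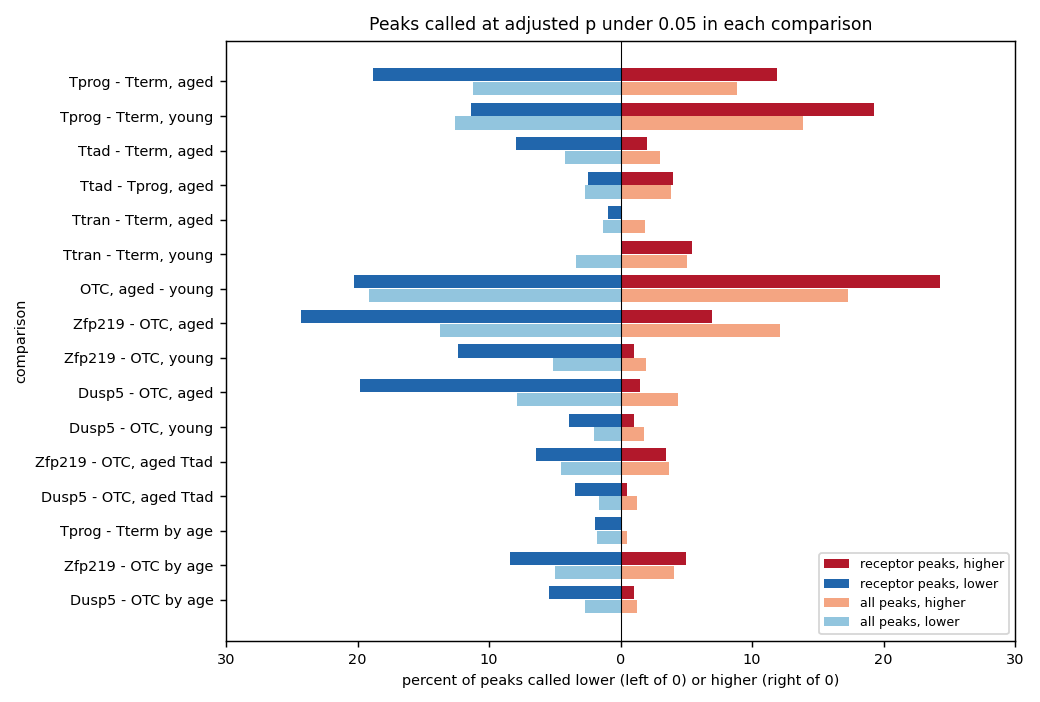
Percent of the 202 receptor peaks (dark bars) and of all 53868 peaks (light bars) called higher (right) or lower (left) in each of the 16 comparisons. Receptor peaks called lower make up 24.3% with the Zfp219 guide and 19.8% with the Dusp5 guide in aged hosts, against 13.7% and 7.87% of all peaks.

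The first question was which receptor genes distinguish progenitor from terminal cells in the OTC control. In Tprog most or some peaks of Il6ra, Il1r1, Il9r, Ifngr2 and Il6st were more open, and some of Il2rb, Csf2rb, Il18rap, Il1r2 and Ifngr1 less open. In aged hosts 62 of the 202 peaks differed (all peaks: 20.1%), of which 24 were higher and 38 lower in Tprog (all peaks: 8.88% and 11.2%). In young hosts 62 differed (all peaks: 26.5%), 39 higher and 23 lower (all peaks: 13.9% and 12.6%). The libraries compared did not overlap at any of these called peaks. This held for every receptor call between single groups, so it adds no support beyond the call itself. With 2 or 3 libraries a group, many calls rested on each of them: 22 of the 62 aged calls and 24 of the 62 young calls remained whichever 1 library was left out. The aged count fell to 41 without OTC Tprog 2, to 40 without Tterm 1 and to 38 without Tterm 2, and the young count fell to 38 without OTC Tprog 2.

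In the gp130 family, which shares the signalling chain encoded by Il6st, 5 of the 8 Il6ra peaks were higher in aged Tprog and 7 of 8 in young Tprog, with none lower. The peak at the Il6ra start (chr3:89912285-89913529), whose promoter is printed above, read 276 and 316 normalized reads in the aged OTC Tprog libraries and 146 and 189 in Tterm (log2 ratio 0.83 with SE 0.18, adjusted p = 0.000306). In young hosts it read 253 and 288 in Tprog and 154, 173 and 157 in Tterm (log2 ratio 0.74 with SE 0.17, adjusted p = 0.000307). At both ages every Tprog library lay above every Tterm library. A peak in the gene at chr3:89879991-89880939 differed more, with 127 and 118 against 41.4 and 47.7 in aged hosts (log2 ratio 1.44 with SE 0.36, adjusted p = 0.00145) and 123 and 121 against 42.3, 61.3 and 28.7 in young hosts (log2 ratio 1.52 with SE 0.33, adjusted p = 0.000154). The strongest Il6ra peak (chr3:89870589-89872632) was also higher, with log2 fold changes of 0.73 (SE 0.12) and 0.96 (SE 0.11).

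At Il6st, 4 of 14 peaks were higher and 1 lower in aged Tprog, and 3 higher and 0 lower in young Tprog. The lower one, 31.8 kb upstream of the gene (chr13:112430627-112432309), read 46.4 and 55.9 in aged Tprog and 133 and 132 in aged Tterm (log2 ratio -1.36 with SE 0.25, adjusted p = 9.18e-06). In young hosts it read 105 and 139 in Tprog and 191, 96.7 and 149.6 in Tterm, which overlapped, and was not called (log2 ratio -0.21 with SE 0.23, adjusted p = 0.545). The difference between the ages was itself called (log2 ratio -1.15 with SE 0.34, adjusted p = 0.0427). Lifr, the leukaemia inhibitory factor receptor, had its strongest peak 58.7 kb upstream (chr15:7029548-7031907), which read 65.7 and 65.7 in aged Tprog and 124 and 175 in Tterm (log2 ratio -1.16 with SE 0.25, adjusted p = 0.000163). It was lower in young Tprog as well (log2 ratio -0.82 with SE 0.23, adjusted p = 0.00317). No peak of Osmr or of Il27ra, the IL-27 receptor alpha chain, was called at either age.

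Among the common gamma chain receptors, all 5 Il2rb peaks were lower in aged Tprog and 3 of 5 in young Tprog. The strongest, in the gene at chr15:78493189-78495837, read 2516 and 2533 in aged Tprog and 3327 and 3063 in aged Tterm (log2 ratio -0.34 with SE 0.057, adjusted p = 1.47e-06). In young hosts it read 2569.7 and 2830.3 in Tprog and 2857, 2857 and 2699.7 in Tterm, which overlapped (log2 ratio -0.056 with SE 0.052, adjusted p = 0.47). The peak at chr15:78479487-78481601 fell by 0.58 (SE 0.10) in aged and 0.46 (SE 0.094) in young hosts on the log2 scale. Il9r went the other way, with 2 of 6 peaks higher in aged Tprog and 4 in young Tprog. Only the peak over the start lies in the gene. The others lie 24.9 to 60.8 kb downstream and are weak, with means of 13.6 to 56.6 normalized reads. The peak over the Il9r start (chr11:32199375-32200731) read 314 and 378 in aged Tprog and 172 and 224 in Tterm (log2 ratio 0.81 with SE 0.24, adjusted p = 0.00758). In young hosts all values were lower, 128 and 133 in Tprog and 67, 49.5 and 51.2 in Tterm, and the ratio was larger (log2 ratio 1.22 with SE 0.22, adjusted p = 3.94e-06), but the difference between the ages was not called (log2 ratio -0.41 with SE 0.32, adjusted p = 0.647).

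Il7r, the IL-7 receptor alpha chain, had 1 of 5 peaks called at each age, 3.4 kb upstream (chr15:9533337-9533814), with 147 and 155 in aged Tprog against 69.7 and 65.1 in Tterm (log2 ratio 1.15 with SE 0.34, adjusted p = 0.00872) and 101 and 68.4 against 35.4, 32.2 and 32.1 in young hosts (log2 ratio 1.3 with SE 0.31, adjusted p = 0.000697). The start of Il7r did not differ detectably (log2 fold changes 0.14 with SE 0.23 and -0.075 with SE 0.21). Il2ra, the high-affinity chain of the IL-2 receptor, was mixed, with 1 peak higher and 3 lower of 15 in aged Tprog and 2 higher and 2 lower in young Tprog. The lower ones include a weak peak 16.4 kb upstream (chr2:11625860-11626342), with 18.1 and 27.5 against 50.1 and 66.9 in aged and 24.4 and 12 against 60.7, 43.2 and 56.2 in young hosts (log2 fold changes -1.34 and -1.57, SE 0.44 and 0.40). Il21r had 1 peak in the gene (chr7:125606789-125608253) higher at both ages (0.27 with SE 0.094 and 0.59 with SE 0.086). Its strongest peak, over the start (chr7:125602882-125604061), was called lower in aged Tprog instead and was not called in young Tprog. This aged call was lost in 4 of the fits that leave out a library or change the processing. It is not in the list of lost calls below. Il15ra, with 1 peak, was lower in young Tprog alone (log2 ratio -0.55 with SE 0.11, adjusted p = 6.66e-05), and in aged hosts its value was -0.24 with SE 0.12. Il4ra had 1 of 7 peaks lower at each age, at different sites, and the single Il2rg peak was not called at either age.

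In the IL-1 family, Il1r1 was higher in Tprog at 2 of 5 peaks in aged hosts and 3 in young hosts. The peak with the largest difference, in the gene at chr1:40270881-40271625, read 103 and 110.0 in aged Tprog and 24 and 33.9 in Tterm (log2 ratio 1.86 with SE 0.43, adjusted p = 0.000589). In young hosts it read 99.6 and 86.4 in Tprog and 13.3, 19.7 and 21.4 in Tterm (log2 ratio 2.32 with SE 0.40, adjusted p = 1.72e-06). Il1r2, the decoy receptor that binds IL-1 without signalling, was lower in Tprog instead, at 3 of 7 peaks in aged and 2 in young hosts, the start included (-0.52 with SE 0.14 and -0.72 with SE 0.12). Of the IL-18 receptor peaks, 1 of 6 at Il18r1 and 2 of 6 at Il18rap were lower at each age, and 1 Il18r1 peak was higher in young Tprog. A peak in Il18rap (chr1:40522294-40524676) read 583 and 621 in aged Tprog and 965 and 1097 in Tterm (log2 ratio -0.77 with SE 0.11, adjusted p = 5.06e-08), and -0.66 (SE 0.10) on the log2 scale in young hosts. A peak just past the end of Il18r1 (chr1:40501132-40502528) read 169 and 154 against 329 and 385 in aged hosts (log2 ratio -1.14 with SE 0.17, adjusted p = 1.08e-07) and 188 and 159 against 338, 333 and 339 in young hosts (log2 ratio -0.96 with SE 0.16, adjusted p = 5.81e-07). Il1rap, the shared accessory chain, had no called peak.

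In the class II family, which serves interferons and the IL-10 group, peaks of both chains of the interferon gamma receptor were called. Ifngr2 was higher in Tprog at 2 of 5 peaks in aged and 4 in young hosts, and its strongest peak, 12.3 kb upstream (chr16:91532930-91534716), read 1953 and 1883 against 1460.0 and 1409 in aged hosts (log2 ratio 0.42 with SE 0.073, adjusted p = 4.12e-06) and 1954 and 1894 against 1277, 1332 and 1373 in young hosts (log2 ratio 0.54 with SE 0.067, adjusted p = 2.32e-10). Ifngr1 was lower at 6 of 17 peaks in aged Tprog with none higher, while in young Tprog 2 were lower and 2 higher. A peak in Ifngr1 (chr10:19596462-19598746) was lower at both ages (-0.39 with SE 0.11 and -0.35 with SE 0.10). The type I interferon receptor genes had only higher calls, 1 and 1 peaks of Ifnar1 and Ifnar2 in aged hosts and 4 and 2 in young hosts. The Ifnar1 peak in the gene at chr16:91489557-91491378 rose by 0.57 (SE 0.12) and 0.45 (SE 0.11). Il10ra, the IL-10 binding chain, had 3 of 8 peaks lower in aged Tprog, among them one 13.3 kb outside the gene (chr9:45282484-45282912) with 81.5 and 92.3 against 183 and 185 (log2 ratio -1.08 with SE 0.22, adjusted p = 7.24e-05).

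Csf2rb was lower in Tprog at the same 2 of 4 peaks at both ages. The strongest (chr15:78330605-78332227) read 233 and 219 in aged Tprog and 362 and 366 in Tterm (log2 ratio -0.68 with SE 0.19, adjusted p = 0.00515), and in young hosts 152 and 129 in Tprog and 234, 231 and 258 in Tterm (log2 ratio -0.78 with SE 0.18, adjusted p = 0.000278). Its neighbour (chr15:78328654-78329361) fell by 1.07 (SE 0.27) and 0.64 (SE 0.24) on the log2 scale. In Il20ra, a chain of the IL-20 receptors, a weak peak in the gene (chr10:19747467-19748096) was higher in Tprog at both ages (1.69 with SE 0.52 and 1.93 with SE 0.47). The strongest Il20ra peak (chr10:19718577-19719686), with a mean of 667 normalized reads against 32.4 at the weak one, was called lower in aged Tprog. That call was lost in 4 of the fits that leave out a library or change the processing. It is not in the list of lost calls below. The IL-12 receptor genes had few calls, 1 higher and 2 lower of 16 peaks in aged and 2 lower in young hosts. Of 5 IL-17 receptor peaks, 1 was called, a peak in Il17ra that was higher in young Tprog (log2 ratio 0.92 with SE 0.26, adjusted p = 0.00398).

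**Figure D3:**
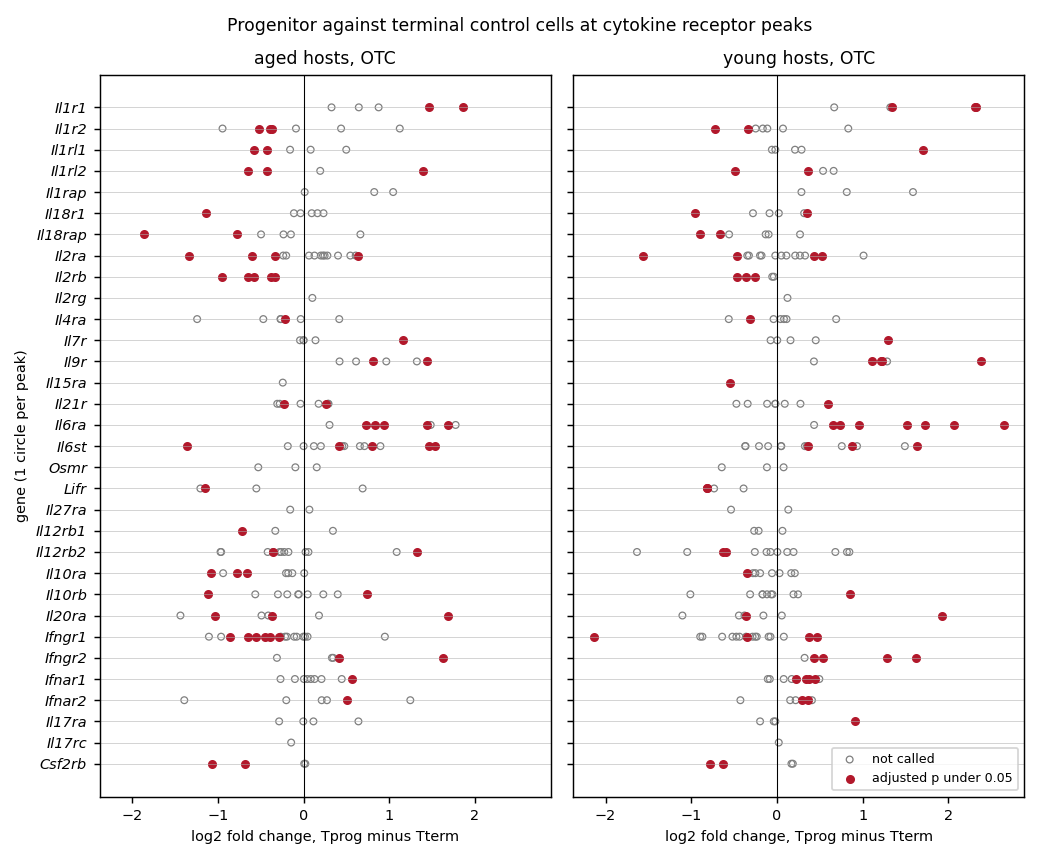
Log2 fold change of Tprog over Tterm in the OTC control for every receptor peak (1 circle each), by gene, in aged (left) and young hosts (right), with called peaks filled. All called Il6ra, Il9r and Il1r1 peaks lie to the right of 0 and all called Il2rb and Csf2rb peaks to the left at both ages.

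Calls of named peaks lost when 1 library was left out were, in aged hosts, the Il7r peak at 9533337 without aged OTC Tprog 2 or aged OTC Tterm 2 (adjusted p up to 0.0667), the Il9r peak at 32199375 without aged OTC Tprog 2 or aged OTC Tterm 1 (adjusted p up to 0.16), the Il2ra peak at 11625860 without aged OTC Tprog 1 or aged OTC Tterm 2 (adjusted p up to 0.212), the Il21r peak at 125606789 without any 1 of the 4 (adjusted p up to 0.174), the Il20ra peak at 19747467 without aged OTC Tprog 1 or aged OTC Tprog 2 or aged OTC Tterm 2 (adjusted p up to 0.326), the Ifngr1 peak at 19596462 without aged OTC Tterm 1 (adjusted p up to 0.093), the Csf2rb peak at 78330605 without aged OTC Tprog 2 (adjusted p up to 0.0572) and the Il1r2 peak at 40084374 without aged OTC Tterm 2 (adjusted p up to 0.0704). In young hosts they were the Il7r peak at 9533337 without young OTC Tprog 1 (adjusted p up to 0.0593), the Il2ra peak at 11625860 without young OTC Tprog 2 (adjusted p up to 0.122), the Ifngr1 peak at 19596462 without young OTC Tprog 2 (adjusted p up to 0.201), the Csf2rb peak at 78328654 without young OTC Tprog 1 or young OTC Tterm 2 or young OTC Tterm 3 (adjusted p up to 0.358), the Lifr peak at 7029548 without young OTC Tprog 1 (adjusted p up to 0.0945) and the Il17ra peak at 120483091 without young OTC Tprog 2 (adjusted p up to 0.321).

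Whether the Tprog to Tterm difference depended on host age was tested directly. At 4 of 202 peaks it did, all lower in aged hosts (all peaks: 2.32% called, 0.512% higher and 1.81% lower). Besides the Il6st and strongest Il2rb peaks, these were 2 peaks between Il1rl2, a receptor for IL-36, and Il1rl1, the receptor for IL-33. The first (chr1:40382528-40383516) read 462 and 441 in aged Tprog and 583 and 629.6 in aged Tterm, but 448 and 483 in young Tprog and 307, 447 and 348 in young Tterm (log2 ratio -0.78 with SE 0.17, adjusted p = 0.00279 for the interaction). It was called lower in aged Tprog and higher in young Tprog, but the aged call was lost without aged OTC Tprog 2 or aged OTC Tterm 2 (adjusted p up to 0.11) and the young call without young OTC Tprog 2, young OTC Tterm 1 or young OTC Tterm 3 (adjusted p up to 0.172). The second (chr1:40391210-40394142) read 905 and 951 in aged Tprog and 1385 and 1392 in aged Tterm, and 1008 and 928 in young Tprog and 964, 927 and 1053 in young Tterm (log2 ratio -0.56 with SE 0.12, adjusted p = 0.00192). The count fell to 2 without aged OTC Tprog 1, young OTC Tprog 2 or young OTC Tterm 3, and with library weights it was 7 (all peaks: 3.99%), these 4 among them. The interaction at the Il6st peak was lost in 7 of the 9 fits that leave out 1 library (adjusted p up to 0.24) and at the strongest Il2rb peak in 5 (adjusted p up to 0.246), while those at the Il1rl2 and Il1rl1 peaks remained. Both lost calls were also lost with quantile normalization and with reads thinned to the smallest total, and the Il6st call with a pseudocount of 8.

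The Ttad cells of aged hosts are negative for both sorting proteins. Some of their Il6ra peaks were less open than in Tprog. The Il9r start was more open than in Tterm, and the upstream Lifr peak less open. Against Tterm, 4 receptor peaks were higher and 16 lower (all peaks: 7.28% called, 3.02% higher and 4.26% lower), and against Tprog 8 were higher and 5 lower (all peaks: 6.55% called, 3.82% higher and 2.73% lower). Of the 5 lower against Tprog, 4 were Il6ra peaks. The Il6ra peak at chr3:89906062-89906659 read 3.35 and 30.8 in Ttad, 45.3 and 87.8 in Tprog and 18.5 and 19.2 in Tterm (log2 ratio -2.45 with SE 0.57, adjusted p = 0.00243 against Tprog). The Ttad libraries lay below both Tprog libraries there. The start of Il6ra read 228 and 168 in Ttad, below both Tprog libraries given above (log2 ratio -0.59 with SE 0.18, adjusted p = 0.0329 against Tprog). The lower Ttad value lay within the Tterm values.

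Il9r resembled Tprog in these cells. Its start read 436 and 333 in Ttad, above both Tterm libraries (log2 ratio 0.95 with SE 0.24, adjusted p = 0.00426), and did not differ detectably from Tprog (log2 ratio 0.15 with SE 0.24, adjusted p = 0.812). Lifr was low in both, and its upstream peak read 46.9 and 62.8 in Ttad (log2 ratio -1.42 with SE 0.25, adjusted p = 1.88e-05 against Tterm). At 4 named sites Ttad differed from Tprog but was not called against Tterm. The Il6st peak at chr13:112430627-112432309 read 127 and 119.5 in Ttad (log2 ratio 1.26 with SE 0.25, adjusted p = 0.00025 against Tprog). The peak past Il18r1 (chr1:40501132-40502528) read 283 and 317 (log2 ratio 0.89 with SE 0.17, adjusted p = 0.000183 against Tprog), and the Il10ra peak at chr9:45282484-45282912 read 143 and 211 (log2 ratio 0.99 with SE 0.22, adjusted p = 0.00133 against Tprog). The fourth, a peak in Il10rb (chr16:91412872-91413897), read 149 and 177 in Ttad, 311 and 273 in Tprog and 157 and 194 in Tterm (log2 ratio -0.84 with SE 0.19, adjusted p = 0.00136 against Tprog).

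These counts move with single libraries and with their weights. With library weights 13 peaks were called against Tterm and 10 against Tprog (all peaks: 5.93% and 5.45%). Against Tterm 3 of the 20 calls, and against Tprog 2 of the 13, remained whichever library was left out. Against Tterm the count was 7 without Ttad 1, 6 without Tterm 1 and 8 without Tterm 2. Against Tprog it was 5 without Tprog 1, and 7 without Tprog 2 or Ttad 1. Lost calls among the named peaks were the Il6ra peak at 89906062 without Tprog 2 or Ttad 1 (adjusted p up to 0.483), the Il6ra peak at 89912285 without Tprog 1 or Tprog 2 or Ttad 2 (adjusted p up to 0.39), the Il9r peak at 32199375 without Ttad 1 or Tterm 1 (adjusted p up to 0.139), the Il10ra peak at 45282484 without Ttad 2 (adjusted p up to 0.106) and the Il10rb peak at 91412872 without Tprog 1 or Ttad 1 (adjusted p up to 0.0564). With library weights all of them were still called.

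Ttran and Tterm cells, which share Tim-3, differed at few of these peaks. In aged hosts 2 peaks were lower in Ttran and none higher (all peaks: 3.22% called, 1.35% lower and 1.87% higher), one in Il10ra (chr9:45268298-45269680, log2 ratio -0.71 with SE 0.18, adjusted p = 0.011) and the one past Il18r1 (log2 ratio -0.62 with SE 0.17, adjusted p = 0.0237). In young hosts 11 were higher and none lower (all peaks: 8.38% called, 5.02% higher and 3.36% lower). They included 3 of 8 Il21r peaks and 2 of 8 Il6ra peaks. The strongest Il6ra peak read 609, 605 and 651 in young Ttran and 363, 477 and 403 in Tterm (log2 ratio 0.59 with SE 0.10, adjusted p = 1.13e-05), against 787 and 821 in Tprog. A peak in Il1rl1 (chr1:40412392-40413698) read 358, 286 and 303 in Ttran and 207, 209.9 and 200.2 in Tterm (log2 ratio 0.61 with SE 0.15, adjusted p = 0.00241). Il4ra, the receptor chain for IL-4 and IL-13, was higher at its strongest peak (log2 ratio 0.30 with SE 0.067, adjusted p = 0.00117). The aged count was 1 without Tterm 1 or Ttran 2, 0 without Tterm 2 and 5 without Ttran 1, so neither aged call held whichever library was left out. With quantile normalization it was 4, on the groups compared alone 0, and with library weights 1 (all peaks: 1.58%). An unadjusted p under 0.05 was reached at 34 aged and 39 young peaks. The share of all peaks at that threshold was not taken. On simulated reads the aged comparison gave too many small p-values, so these peaks are not counted as differences. The young count was 7 without Tterm 3 or Ttran 1, 25 with edgeR, 26 with DESeq2 and 28 with library weights (all peaks: 15.2%).

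The second question was how host age affects these genes in OTC cells, over the mean of Tprog, Ttran and Tterm. Many peaks of the IL-1 family genes that lie side by side on chromosome 1, parts of Il2ra and Csf2rb and the start of Il9r were more open in aged hosts. Parts of Il10ra, Il12rb2 and Ifngr2 were less open, as were parts of Il10rb, whose calls were less stable. In all, 49 peaks were higher and 41 lower in aged hosts (all peaks: 36.5% called, 17.3% higher and 19.1% lower). Of these, 60 of the 90 calls remained whichever library was left out. With 1 value per group in place of each library, 57 were called (all peaks: 24.4%), all in the same direction.

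The chromosome 1 cluster holds Il1r2, Il1r1, Il1rl2, Il1rl1, Il18r1 and Il18rap, in this order, and 33 of the peaks. Of these 22 were higher in aged hosts and 0 lower, from 5 of 7 at Il1r2 and 5 of 6 at Il18r1 to 2 of 6 at Il18rap. The largest difference of all receptor peaks was 19.1 kb upstream of Il1r2 (chr1:40064600-40065570). It read 165 and 96.7 in aged Tprog, 152 and 177 in Ttran and 249.5 and 240.1 in Tterm. In young hosts it read 38 and 31.7, then 60.5, 70.4 and 38, then 32.9, 41.7 and 43.3 in the same states. All 6 aged libraries lay above all 8 young ones (log2 ratio 2.01 with SE 0.20, adjusted p = 1.98e-14). A peak in Il1r1 (chr1:40315306-40315898) ranged over 43.6 to 171 (median 97, 6 libraries) in aged hosts and 9.44 to 83.8 (median 19.9, 8 libraries) in young hosts (log2 ratio 1.81 with SE 0.26, adjusted p = 7.23e-09). These ranges overlapped with states pooled, but within each state every aged library lay above every young one. In Il18r1, the peak with the largest difference (chr1:40473562-40474101) ranged over 436 to 543 (median 465, 6 libraries) against 239.6 to 328 (median 271, 8 libraries) (log2 ratio 0.75 with SE 0.077, adjusted p = 7.94e-14). Il1rap, the accessory chain on chromosome 16, had no called peak.

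**Figure D4:**
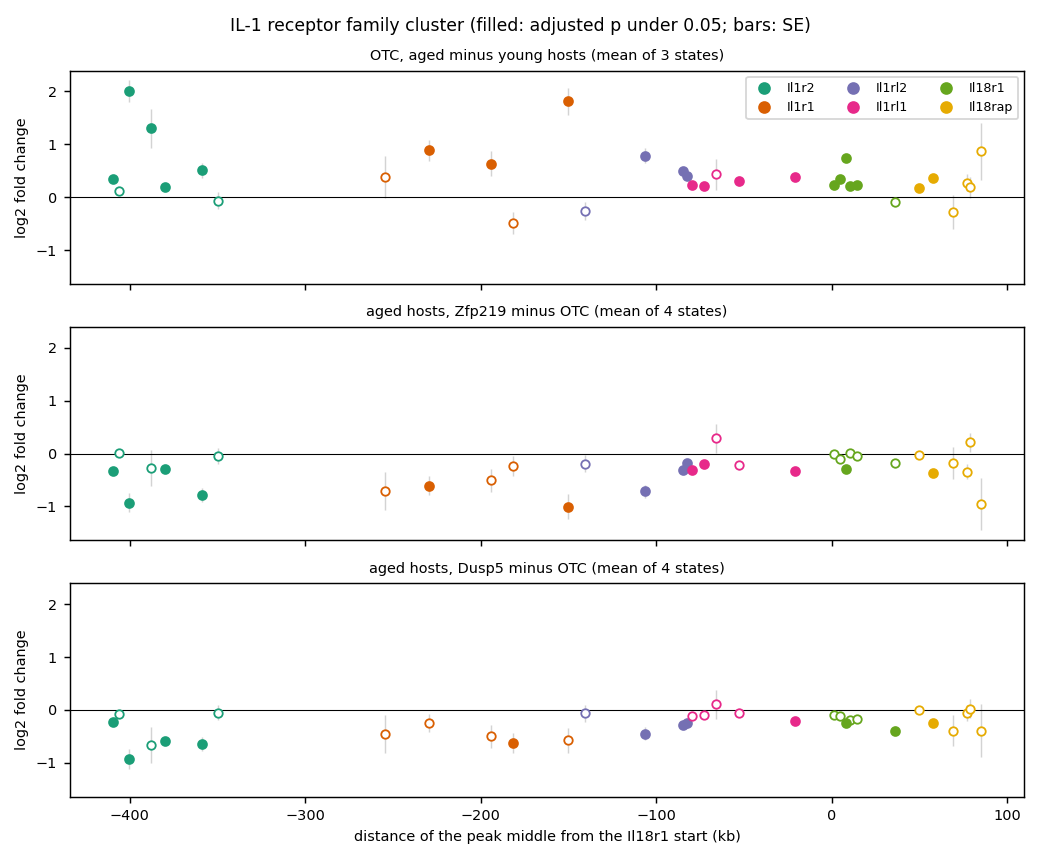
Log2 fold change (points) and SE (bars) of the 33 peaks of the IL-1 receptor family cluster against their distance from the Il18r1 start in kb, for OTC in aged over young hosts (top), Zfp219 over OTC in aged hosts (middle) and Dusp5 over OTC in aged hosts (bottom), with called peaks filled. All 22 called peaks in the top panel lie above 0, and all called peaks of both guides under 0. The aged OTC libraries are part of all 3 comparisons.

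Among the common gamma chain genes, the Il9r start ranged over 172 to 378 (median 229.8, 6 libraries) in aged and 49.5 to 133 (median 77.3, 8 libraries) in young OTC libraries, without overlap (log2 ratio 1.53 with SE 0.13, adjusted p = 3.52e-18). A peak 58.5 kb downstream of Il9r was lower with age (log2 ratio -0.94 with SE 0.24, adjusted p = 0.0011). Il2ra was higher at 7 of 15 peaks and lower at 1. The largest was in the gene at chr2:11690299-11691760, with 308 to 489 (median 362, 6 libraries) against 161 to 233 (median 209, 8 libraries) (log2 ratio 0.92 with SE 0.086, adjusted p = 9.90e-16), while the start of Il2ra was not called (log2 ratio 0.12 with SE 0.06, adjusted p = 0.113). Il7r was higher at 3 of 5 peaks, and the one in the gene at chr15:9523056-9524129 ranged over 249 to 369 (median 323, 6 libraries) against 142 to 217 (median 180.3, 8 libraries) (log2 ratio 0.81 with SE 0.10, adjusted p = 3.22e-11). The Il7r start was not called (log2 ratio 0.076 with SE 0.12, adjusted p = 0.667). Il21r was split, higher at the start (0.25, SE 0.046) and lower at 3 other peaks. Il2rb, which differed so widely between states, had 1 called peak, lower by 0.14 (SE 0.037).

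Csf2rb was higher with age at 2 of 4 peaks, the strongest with 219 to 366 (median 294, 6 libraries) against 129 to 258 (median 212, 8 libraries) (log2 ratio 0.60 with SE 0.10, adjusted p = 1.36e-06). The class II family went mostly the other way, with 9 peaks higher and 22 lower of 62. Il10rb had 5 of 10 peaks lower and none higher, and Il10ra 5 of 8 lower and 1 higher. Each of the 5 Il10rb calls was lost in 4 to 12 of the fits that leave out a library or change the processing. None of them was called with 1 value per group. An Il10ra peak 5.02 kb outside the gene (chr9:45274168-45275187) ranged over 115 to 150.4 (median 143, 6 libraries) in aged and 188 to 267 (median 222, 8 libraries) in young hosts (log2 ratio -0.73 with SE 0.12, adjusted p = 2.66e-07). A peak in Ifngr2 (chr16:91561572-91562600) ranged over 74.7 to 128 (median 107, 6 libraries) against 159 to 240.2 (median 192, 8 libraries) (log2 ratio -0.91 with SE 0.13, adjusted p = 4.88e-09), and at the start of Ifngr2, whose promoter is printed above, the log2 fold change was -0.26 (SE 0.075). Ifngr1 was split, with 4 of 17 peaks higher and 6 lower, and the start among those not called. A peak 61.3 kb upstream of Ifngr1 (chr10:19529552-19530622) fell from 147 to 303 (median 237, 8 libraries) in young to 81.5 to 202 (median 142, 6 libraries) in aged hosts (log2 ratio -0.73 with SE 0.12, adjusted p = 8.37e-07).

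In the gp130 family 1 peak was higher and 7 lower of 31, among them 2 in Il6ra, 3 at Il6st and 2 at Lifr. The strongest Il6ra peak fell by 0.41 (SE 0.067) on the log2 scale, whereas the Il6ra start did not differ detectably (0.039, SE 0.10). Il12rb2, the signalling chain for IL-12, had 4 of 13 peaks lower and 1 higher, the start included among the lower ones (log2 ratio -0.28 with SE 0.071, adjusted p = 0.000672). No IL-17 receptor peak was called with age. The calls of the 16 peaks named for age remained whichever library was left out. Of the peaks with ranges given, those of Il1r1, Csf2rb and Ifngr1 overlapped between the ages with states pooled, and none overlapped within a state.

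The third question was what the Zfp219 guide does to these genes. In aged hosts receptor peaks were less open more often than more open, mainly in the IL-1 and common gamma chain families, with Il1r2, Il1r1, Il2ra, Il2rb, Il4ra and Il21r among them. Over the mean of the 4 states, 14 peaks were higher and 49 lower than in OTC (all peaks: 25.8% called, 12.1% higher and 13.7% lower), and the median log2 fold change was -0.067 over the receptor peaks and 0.0064 over all peaks. In young hosts, over 3 states, 2 were higher and 25 lower (all peaks: 7.07% called, 1.92% higher and 5.15% lower), with medians of -0.058 and -0.00049. Of these, 53 of the 63 aged calls and 13 of the 27 young calls remained whichever library was left out. With 1 value per group, 47 aged and 14 young peaks were called (all peaks: 14.1% and 2.12%), all in the same direction. The aged OTC libraries of this comparison are also those of the age comparison above and of the Dusp5 comparison below, so an OTC library that stands apart would enter all of them.

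By family, 15 of 36 IL-1 family peaks and 20 of 48 common gamma chain peaks were lower in aged hosts, with 0 and 2 higher. In the IL-1 family the peak upstream of Il1r2 (chr1:40064600-40065570) read 99.5 and 69 in aged Zfp219 Tprog, 93.9 and 82.4 in Ttran, 122 and 122 in Tterm and 71.2 and 75 in Ttad. The OTC values for Ttad were 163 and 181, and those of the other states are given above (log2 ratio -0.93 with SE 0.19, adjusted p = 4.42e-05). In young hosts, where it is weak, the difference was not called (log2 ratio -0.40 with SE 0.19, adjusted p = 0.2), and neither was the difference between the ages (log2 ratio -0.43 with SE 0.28, adjusted p = 0.384). The peak in Il1rl2 (chr1:40358547-40359922) ranged over 68.1 to 145 (median 113, 8 libraries) with the Zfp219 guide and 148 to 224 (median 186, 8 libraries) with OTC in aged hosts (log2 ratio -0.71 with SE 0.12, adjusted p = 3.44e-06). In young hosts its log2 fold change was 0.12 (SE 0.13), and the difference between the ages was called (log2 ratio -0.88 with SE 0.19, adjusted p = 0.000806). The Il1r1 peak at chr1:40315306-40315898 was likewise lower in aged hosts (-1.01, SE 0.24) and not in young hosts (0.45, SE 0.24), with a called difference between them (log2 ratio -1.51 with SE 0.36, adjusted p = 0.00265).

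Il21r, the receptor for IL-21, had 4 of 8 peaks lower in aged and 4 in young hosts. Its start (chr7:125602882-125604061) read 758 and 667 in young Zfp219 Tprog against 939 and 904 with OTC. In young Ttran it read 813, 855 and 838 against 1111, 1089 and 1074, and in young Tterm 882, 831 and 888 against 945, 892 and 967. Every Zfp219 library thus lay below every OTC library of its state (log2 ratio -0.29 with SE 0.043, adjusted p = 6.66e-07). In aged hosts the order held for Ttran, Tterm and Ttad means but not for Tprog, which read 1177 and 1015 against 1044 and 953 (log2 ratio -0.23 with SE 0.042, adjusted p = 9.46e-06). The difference between the ages was not called (log2 ratio 0.059 with SE 0.065, adjusted p = 0.647).

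Il2rb was lower at 3 of 5 peaks in aged and 3 in young hosts. The peak at chr15:78479487-78481601 ranged over 497 to 794 (median 722, 8 libraries) with Zfp219 and 643 to 969.7 (median 887, 8 libraries) with OTC in aged hosts (log2 ratio -0.31 with SE 0.052, adjusted p = 9.81e-07) and over 447 to 778 (median 684, 8 libraries) against 604 to 889.6 (median 846, 8 libraries) in young hosts (log2 ratio -0.32 with SE 0.053, adjusted p = 6.48e-06). The strongest Il2rb peak fell by 0.19 (SE 0.028) and 0.19 (SE 0.029). Il2ra was lower at 6 of 15 peaks in aged hosts and higher at 1, the start (log2 ratio 0.15 with SE 0.055, adjusted p = 0.0317). In young hosts the start was lower instead (log2 ratio -0.21 with SE 0.056, adjusted p = 0.011), and the difference between the ages was called (log2 ratio 0.32 with SE 0.085, adjusted p = 0.00845). The Il2ra peak with the largest fall (chr2:11657553-11657847) ranged over 79 to 122 (median 94.5, 8 libraries) against 125 to 191 (median 149, 8 libraries) in aged hosts (log2 ratio -0.69 with SE 0.12, adjusted p = 2.79e-06). Il4ra was lower at 4 of 7 peaks in aged and 3 in young hosts, its strongest by 0.41 (SE 0.041) and 0.25 (SE 0.042).

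The Il9r start moved in opposite directions, lower with the Zfp219 guide in aged hosts (log2 ratio -0.52 with SE 0.12, adjusted p = 0.000385) and higher in young hosts (log2 ratio 0.43 with SE 0.12, adjusted p = 0.0141), with a called difference between the ages (log2 ratio -0.89 with SE 0.18, adjusted p = 0.000351). In young Tprog it read 200.2 and 202 with Zfp219 and 128 and 133 with OTC, and in aged Ttad 234 and 234 with Zfp219 and 436 and 333 with OTC. The class II family had 7 higher and 8 lower calls among its 62 peaks in aged hosts. The higher ones include a peak 18 kb upstream of Il20ra (chr10:19691560-19693705), which ranged over 419.7 to 592 (median 459, 8 libraries) against 270.0 to 426 (median 367, 8 libraries) (log2 ratio 0.42 with SE 0.064, adjusted p = 9.81e-08), and a peak 61.3 kb upstream of Ifngr1 (log2 ratio 0.41 with SE 0.11, adjusted p = 0.00344). A peak at the edge of Il12rb1 (chr8:70808327-70808683), the chain shared by the IL-12 and IL-23 receptors, was higher in aged hosts (log2 ratio 0.50 with SE 0.11, adjusted p = 0.000239). It was not so in young hosts (-0.18, SE 0.11), and the ages differed (log2 ratio 0.69 with SE 0.17, adjusted p = 0.00393). Il10rb had 4 of 10 peaks lower in young hosts and 1 higher in aged hosts, the same peak for chr16:91445039-91446252 (-0.21 with SE 0.064 and 0.22 with SE 0.063).

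The effect of the Zfp219 guide differed between the ages, over the 3 states they share, at 27 receptor peaks, 10 higher and 17 lower in aged hosts (all peaks: 9.11% called, 4.09% higher and 5.01% lower). With 1 value per group 7 of them were called (all peaks: 2.27%), and 14 of the 27 remained whichever library was left out. In Ttad cells alone, 7 peaks were higher and 13 lower with the guide (all peaks: 8.23% called, 3.66% higher and 4.56% lower). Of the higher ones 4 were Ifngr1 peaks. The peak at chr10:19521820-19522764 read 50.0 and 59.7 with Zfp219 and 18.4 and 13.6 with OTC (log2 ratio 1.73 with SE 0.45, adjusted p = 0.00727), and the one at chr10:19529552-19530622 read 166 and 153 with Zfp219 and 95.6 and 87.5 with OTC (log2 ratio 0.80 with SE 0.23, adjusted p = 0.0155). Of the lower ones 3 were Il1r2 peaks. Single libraries mattered here, since no Ttad call remained whichever library was left out, and the count was 6 without OTC Ttad 1 or Zfp219 Ttad 2, 12 without OTC Ttad 2 and 4 without Zfp219 Ttad 1. The peaks named lost their calls as follows, the Ifngr1 peak at 19521820 without OTC Ttad 2 or Zfp219 Ttad 2 (adjusted p up to 0.0975) and the Ifngr1 peak at 19529552 without any 1 of the 4 (adjusted p up to 0.132).

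The fourth question was what the Dusp5 guide does. In aged hosts the calls were nearly all toward lower accessibility, at Il1r2, Il2ra, Il2rb, Il21r and Ifngr1 among others, and in young hosts few peaks differed. Over the mean of the 4 aged states 3 peaks were higher and 40 lower than in OTC (all peaks: 12.2% called, 4.35% higher and 7.87% lower), with a median log2 fold change of -0.10 over the receptor peaks and 0.0072 over all peaks. With library weights 38 peaks were called (all peaks: 9.67%), 3 higher and 35 lower. Quantile normalization changed the split to 8 higher and 24 lower. In young hosts 2 were higher and 8 lower (all peaks: 3.82% called, 1.8% higher and 2.02% lower). Of these, 31 of the 43 aged calls and 5 of the 10 young calls remained whichever library was left out. With 1 value per group 14 aged and 3 young peaks were called (all peaks: 3.15% and 0.756%). The young count was 6 without young OTC Tprog 2, 16 with edgeR and 18 with DESeq2. Summed peaks of the CD8 T cell marker genes were also lower with the guide in aged hosts. In Tterm they were 9444 and 9836 normalized reads against 10682 and 10753 with OTC. They were lower in aged Ttran and Ttad too, and overlapped in aged Tprog. The fall was not limited to aged hosts or to this guide. In every young state they were lower with the Dusp5 guide, without overlap. In young Tterm they were 10171 to 10476 against 11364 to 11805 with OTC. With the Zfp219 guide they were lower in every young state as well, but in aged hosts they overlapped OTC or lay above it. What this has in common with the receptor peaks was not tested.

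The Il1r2 start (chr1:40084374-40086490) was the clearest, with 257 to 455 (median 319, 8 libraries) in aged Dusp5 and 398 to 618 (median 527, 8 libraries) in aged OTC libraries (log2 ratio -0.58 with SE 0.068, adjusted p = 1.53e-10). By state it read 257 and 312 against 411 and 398 in Tprog and 404 and 455 against 546 and 618 in Tterm, and within each state every Dusp5 library lay below every OTC library. In young hosts the difference was smaller (log2 ratio -0.23 with SE 0.069, adjusted p = 0.0417), and the ages differed (log2 ratio -0.35 with SE 0.10, adjusted p = 0.0318). Its upstream peak at chr1:40064600-40065570 read 71.8 and 53.4 in aged Dusp5 Tprog, 118 and 97.6 in Ttran, 113 and 170.2 in Tterm and 45.4 and 112 in Ttad (log2 ratio -0.92 with SE 0.19, adjusted p = 0.00014). Over the chromosome 1 cluster 12 of 33 peaks were lower in aged hosts and 0 higher.

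Among the common gamma chain genes 17 of 48 peaks were lower in aged hosts and 1 higher. Il2ra was lower at 6 of 15 peaks, Il2rb at 4 of 5, Il21r at 4 of 8 and Il4ra at 2 of 7, and the single Il2rg peak fell by 0.19 (SE 0.059). No Il21r peak was called with 1 value per group in aged hosts. The strongest Il2rb peak ranged over 2226 to 2937 (median 2632, 8 libraries) with Dusp5 and 2516 to 3448 (median 2966, 8 libraries) with OTC in aged hosts (log2 ratio -0.20 with SE 0.028, adjusted p = 4.05e-08) and over 2458 to 2773 (median 2537, 8 libraries) against 2569.7 to 3142 (median 2857, 8 libraries) in young hosts (log2 ratio -0.15 with SE 0.029, adjusted p = 0.000372). With states pooled the ranges overlapped at both ages. Il7r behaved differently, and its peak at chr15:9523056-9524129 was higher with the Dusp5 guide in young hosts, 211 to 344 (median 237, 8 libraries) against 142 to 217 (median 180.3, 8 libraries) (log2 ratio 0.51 with SE 0.092, adjusted p = 9.88e-05). In aged hosts it was not called (log2 ratio -0.15 with SE 0.09, adjusted p = 0.295), and the ages differed (log2 ratio -0.69 with SE 0.14, adjusted p = 0.000514).

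Csf2rb was lower at its strongest peak in young hosts, 74.2 to 229.8 (median 135, 8 libraries) against 129 to 258 (median 212, 8 libraries) (log2 ratio -0.52 with SE 0.10, adjusted p = 0.000181), and in aged hosts as well (log2 ratio -0.38 with SE 0.10, adjusted p = 0.00361). A peak 6.79 kb upstream of Il12rb2 (chr6:67383086-67383933) fell in aged hosts from 66.2 to 121 (median 94.1, 8 libraries) to 33.3 to 67.3 (median 51.2, 8 libraries) (log2 ratio -0.92 with SE 0.17, adjusted p = 3.81e-05). The 3 higher peaks in aged hosts lay 23.5 kb upstream of Il20ra (log2 ratio 0.61 with SE 0.13, adjusted p = 0.000435), 58.5 kb downstream of Il9r (log2 ratio 0.81 with SE 0.22, adjusted p = 0.00802) and 25.1 kb upstream of Il6st (log2 ratio 0.25 with SE 0.065, adjusted p = 0.00494). No peak of Il6ra, Osmr, Lifr or Il27ra was called with the Dusp5 guide at either age. In Il21r a peak in the gene (chr7:125629865-125630908) was lower in young hosts (-0.32, SE 0.078) and in aged hosts (-0.22, SE 0.077).

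The effect of the Dusp5 guide differed between the ages at 13 receptor peaks, 2 higher and 11 lower in aged hosts (all peaks: 4.0% called, 1.27% higher and 2.73% lower). This fell to 1 with 1 value per group (all peaks: 0.653%) and to 8 without aged Dusp5 Tprog 2, Ttran 2 or Tterm 2, and 5 of the 13 calls remained whichever library was left out. The interaction at the Il1r2 start was lost in 10 of the 28 fits that leave out 1 library (adjusted p up to 0.192). In Ttad cells alone 1 peak was higher and 7 lower (all peaks: 2.88% called, 1.21% higher and 1.67% lower). The lower ones include 2 at Il1r2, with 45.4 and 112 at the upstream peak against 163 and 181 with OTC (log2 ratio -1.25 with SE 0.37, adjusted p = 0.0422), and the higher one is the peak upstream of Il20ra (log2 ratio 0.97 with SE 0.26, adjusted p = 0.0215). None of the Ttad calls remained whichever library was left out, and the count was 1 without OTC Ttad 1, 5 without OTC Ttad 2, 3 without Dusp5 Ttad 2 and 0 when the fit used the groups compared alone. With library weights 1 peak was called (all peaks: 0.685%), and the other 7 were not.

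**Figure D5:**
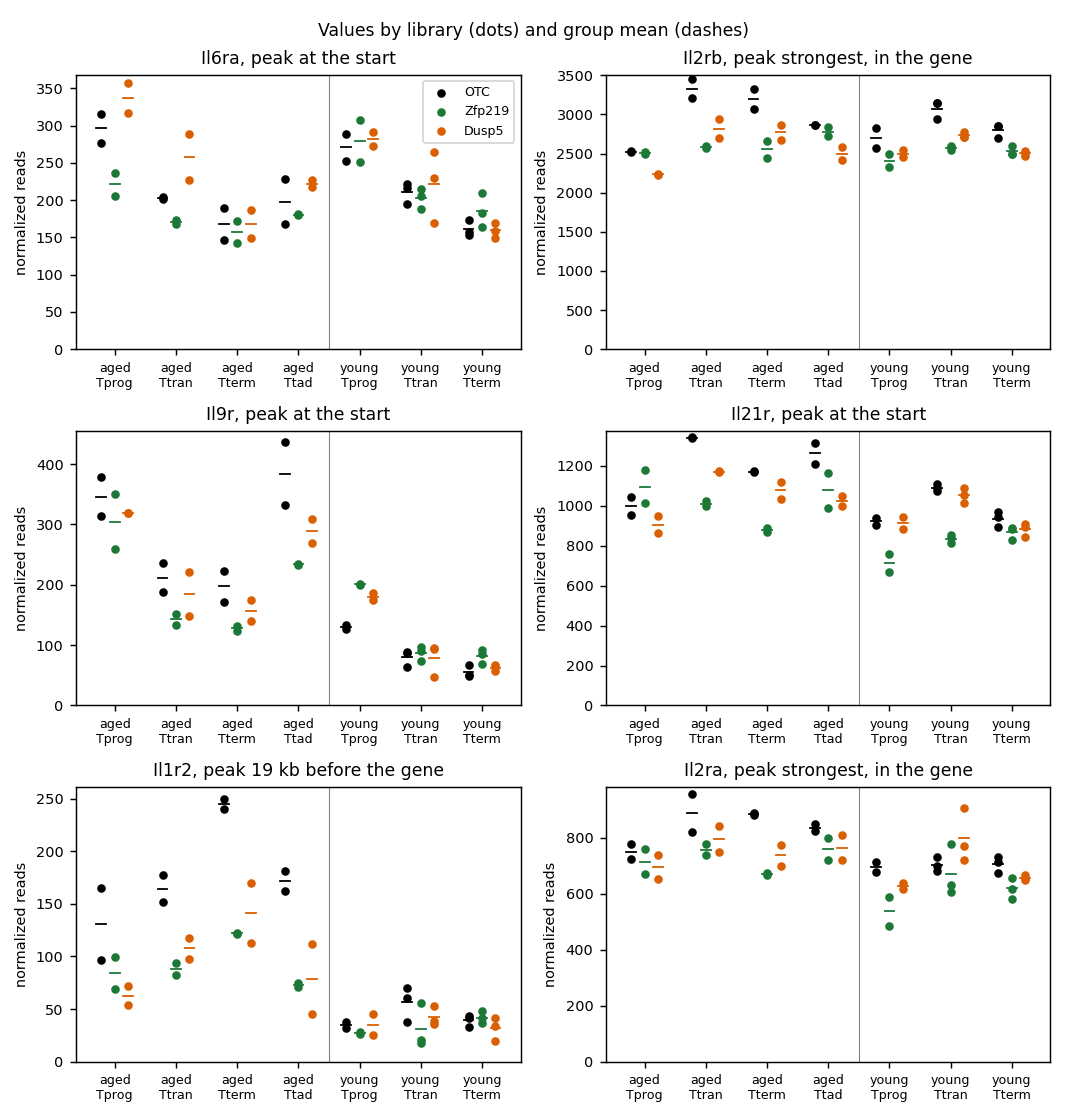
Normalized reads of 6 peaks in each of the 48 libraries (dots) with group means (dashes), by host age and state on the x axis and by guide (colour). The aged OTC dots of the Il1r2 and Il9r peaks lie above the young OTC dots in every state, the Zfp219 dots of the Il21r start lie below the OTC dots in all 3 young states, and the Il6ra start is highest in Tprog.

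Of the guide comparisons with ranges given, those of Il1rl2 and Il2ra with the Zfp219 guide in aged hosts did not overlap with states pooled, and the others overlapped so but not within a state. Among the peaks named for the guide effects within each age, over the pooled states, the calls lost with some single library left out were those of the Il2ra peak at 11642144 (Zfp219, aged) without any of 8 of the 16 (adjusted p up to 0.136), the Il2ra peak at 11642144 (Zfp219, young) without young OTC Tprog 1 (adjusted p up to 0.0778), the Il10rb peak at 91445039 (Zfp219, young) without any of 6 of the 16 (adjusted p up to 0.143), the Il1r2 peak at 40084374 (Dusp5, young) without any of 10 of the 16 (adjusted p up to 0.461), the Il21r peak at 125629865 (Dusp5, aged) without any of 9 of the 16 (adjusted p up to 0.163), the Il21r peak at 125629865 (Dusp5, young) without young OTC Tprog 2 (adjusted p up to 0.0949) and the Il2rg peak at 101267394 (Dusp5, aged) without any of 7 of the 16 (adjusted p up to 0.105).

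Other genes of these pathways, taken from lists drawn up with earlier results of these data known, can be set beside the receptors by counts. Of 25 further cytokine receptor genes, 17 had a peak, 50 peaks in all. In Tprog against Tterm 10 higher and 4 lower were called in aged and 16 higher and 3 lower in young hosts, against the 24 and 38, and 39 and 23, of the 202 peaks above. With the Dusp5 guide in aged hosts 0 higher and 5 lower of the 50 were called (10%, all peaks: 12.2%). Their median log2 fold change was 0.12. With the Zfp219 guide 4 higher and 7 lower were called in aged hosts (22%, all peaks: 25.8%). In young hosts 1 higher and 2 lower were called with it (6%, all peaks: 7.07%). Of 20 genes for Janus kinases, STAT factors, their inhibitors and the IL-1 receptor adaptors, 20 had a peak, 132 in all. With the Dusp5 guide in aged hosts 3 higher and 28 lower of these were called (23.5%, all peaks: 12.2%). With the Zfp219 guide 16 higher and 36 lower were called in aged hosts (39.4%, all peaks: 25.8%). In young hosts 0 higher and 19 lower were called with it (14.4%, all peaks: 7.07%). Of 21 ligand genes, 20 had a peak, 110 in all. With host age 28 higher and 12 lower of these differed (36.4%, all peaks: 36.5%). With the Dusp5 guide 1 higher and 16 lower differed in aged hosts (15.5%, all peaks: 12.2%). In young hosts 9 higher and 1 lower differed with it (9.09%, all peaks: 3.82%). The shares among all 53868 peaks are those given beside each comparison.

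Peaks of 1 receptor gene followed each other across the 21 groups more closely than peaks of different genes. Over the 149 peaks with a mean of at least 50 normalized reads, the median Pearson correlation of log2 group means was 0.24 for the 413 pairs of 1 gene and 0.029 for the 10613 pairs of different genes. It was highest within Il1rl1 (0.68, 4 peaks), Il6ra (0.63, 5 peaks), Il2rb (0.60, 5 peaks) and Ifngr2 (0.54, 3 peaks), and low within Il12rb1 (-0.015, 3 peaks), Il1r1 (0.033, 3 peaks) and Il17ra (0.064, 4 peaks). In the chromosome 1 cluster it was 0.28 over 27 peaks of 6 genes. These values describe groups whose points share their libraries and depth, and carry no test.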

How the data were processed

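ATAC-seq libraries of 48 sorted T cell pools were compared. The values the authors deposited are a normalized signal, reads in each of 53868 peaks divided by 1 size factor per library. Per the submitters' processing notes the build was mm10, with Bowtie2 2.2.9, Picard 2.8.0, SAMtools 1.3.1, MACS2 2.1.1 and DESeq2 1.28.1, and no order or parameter is given in the sources used here, so neither the shift for Tn5 nor the filters on reads are known. In every library 100% of the deposited values were whole multiples of 1 read within 0.01, which gave back the reads and the depth of each library. Columns were matched to samples by the title in their names. Peaks were assigned to genes with a RefSeq gene table of GRCm38.p6, the same build, and coordinates are printed as the peak names give them.

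Group means were fitted with limma 3.58.1 (R 4.3.3) on log2(value + 1) over all 48 libraries, with a trend in the prior variance and Benjamini-Hochberg adjustment over all peaks. The script was tested on simulated data. It recovered the fold changes put in, but falsely called peaks exceeded the nominal share in the simulated Zfp219 comparisons, and p-values were too small or too large where depths differed. Library weights (limma's arrayWeights) were therefore added after the data were seen. On the recovered reads edgeR 4.0.16 and DESeq2 1.42.0 were alternatives. For host age limma called 19651 peaks of all 53868, edgeR 20626 and DESeq2 21261. For the Zfp219 guide in aged hosts they called 13893, 14227 and 15115, and for the Dusp5 guide in aged hosts 6585, 6209 and 7031.

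The genes and lists were chosen with earlier results of these data known. The rule for named peaks was the strongest peak of each gene and, per comparison, the 3 largest rises and 3 largest falls among called peaks whose libraries do not overlap. Other peaks named were chosen after their values were seen.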

Additional observations from a re-analysis of the deposited data

Results flagged for a closer look

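Effects that differed between aged and young hosts, by a test of the difference itself, are listed here, with no explanation weighed. For each is given how many of the fits that leave out 1 library lost the call, with the highest adjusted p of those fits where any did. The difference between Tprog and Tterm depended on host age at 4 receptor peaks. These include a peak upstream of Il6st with a log2 difference of -1.15 (SE 0.34, lost in 7 of 9, adjusted p up to 0.24), one downstream of Il1rl2 with -0.78 (SE 0.17, lost in 0 of 9) and one upstream of Il1rl1 with -0.56 (SE 0.12, lost in 0 of 9).

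The effect of the Zfp219 guide differed between the ages at 27 peaks. In aged hosts it was higher than in young hosts by 1.01 (SE 0.35, lost in 19 of 28, adjusted p up to 0.171) at chr10:19521820-19522764, 69.2 kb upstream of Ifngr1. It was higher by 0.76 (SE 0.22, lost in 1 of 28, adjusted p up to 0.0509) at an Il10rb peak (chr16:91433424-91434026) and by 0.69 (SE 0.17, lost in 0 of 28) at the edge of Il12rb1. At Il1r1 the difference was -1.51 (SE 0.36, lost in 0 of 28) for chr1:40315306-40315898 and -1.04 (SE 0.33, lost in 13 of 28, adjusted p up to 0.0893) for chr1:40270881-40271625, and at a weak Il4ra peak (chr7:125561302-125561738) -1.20 (SE 0.36, lost in 4 of 28, adjusted p up to 0.0647). Of the peaks listed for this guide, only those at Il12rb1 and at chr1:40315306-40315898 were still called on 1 value per group.

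The effect of the Dusp5 guide differed between the ages at 13 peaks. The difference was 1.13 (SE 0.34, lost in 17 of 28, adjusted p up to 0.151) downstream of Il9r, 0.26 (SE 0.068, lost in 2 of 28, adjusted p up to 0.0607) at an Il6st peak (chr13:112424272-112427808) and -0.69 (SE 0.14, lost in 0 of 28) in Il7r. It was -0.56 (SE 0.12, lost in 0 of 28) in Il2ra and -0.54 (SE 0.13, lost in 0 of 28) past Il18r1. On 1 value per group only the Il7r difference was still called. Aged OTC libraries enter all of these differences, and host age cannot be told apart from the library set.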

How the results depend on the processing

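No called receptor peak reversed under any alternative run. Of the 475 calls, 26 were lost with library weights, 87 with quantile normalization, 146 with reads thinned to the smallest total, 36 on the groups compared alone, 14 with edgeR, 11 with DESeq2, 4 with a pseudocount of 8 and 3 with TMM factors. Of 273 calls that could be fitted on 1 value per group, 130 were lost. Counts that moved by over 1.5 times were as follows. With DESeq2, the interaction of Dusp5 and age had 20 calls, that of state and age 8, young Dusp5 18 and young Ttran against Tterm 26. With edgeR, young Dusp5 had 16, young Ttran against Tterm 25 and Dusp5 in Ttad 3. With library weights, the interaction of state and age had 7, Ttad against Tterm 13, aged Ttran against Tterm 1, Dusp5 in Ttad 1 and young Ttran against Tterm 28. With quantile normalization, these had 2, 12, 4, 4 and 13, and the aged Dusp5 split was 8 higher and 24 lower, the young Zfp219 split 4 and 18, and the split of Ttad against Tprog 3 and 6. On the groups compared alone, Ttad against Tterm had 11, aged Ttran against Tterm 0, Dusp5 in Ttad 0, young Dusp5 18 and young Ttran against Tterm 22. With thinned reads, the interaction of Zfp219 and age had 17, Ttad against Tprog 8, Ttad against Tterm 9, Dusp5 in Ttad 1 and Zfp219 in Ttad 9. With TMM factors young Ttran against Tterm had 18, and without the weakest 25% of peaks it had 17 and aged Ttran against Tterm 4. On 1 value per group, host age had 57, Zfp219 in young hosts 14, Dusp5 in aged hosts 14 and in young hosts 3, and the interactions of Zfp219 and Dusp5 with age 7 and 1. Fewer reads in the thinned libraries and fewer values per group leave less to test with, and the cause of the other moves was not tested. Leaving out each library in turn gave 38 to 42 calls for aged and 38 to 53 for young Tprog against Tterm, 6 to 15 and 5 to 9 for Ttad against Tterm and Tprog, and 0 to 5 and 7 to 10 for aged and young Ttran against Tterm. It gave 77 to 86 for age, 59 to 65 and 23 to 29 for Zfp219 in aged and young hosts, 37 to 45 and 6 to 14 for Dusp5, 4 to 12 and 1 to 7 for the guides in Ttad, and 2 to 4, 19 to 30 and 8 to 16 for the interactions of age with state, Zfp219 and Dusp5. Where a group is left with 1 library, it is assumed to vary like the others. Deviations of libraries with the same replicate number did not go together (correlations of -0.0184 to 0.017 over all pairs). No pairing by number thus shows in the values, but this cannot exclude that such libraries share mice. With the number as a block the counts were 92 for age, 64 and 27 for Zfp219, 43 and 11 for Dusp5 and 62 and 59 for Tprog against Tterm in aged and young hosts, and 8 of the 475 calls were lost.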
